A study of Mus musculus with 11 samples.

Results

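G-protein coupled receptors and ion channels were examined in RNA-Seq data from 6 mouse mammary tumor cell lines. The members were found by symbol: every protein-coding gene of the deposited table whose name begins as those of the Gpr, adrenergic, purinergic, muscarinic, endothelin and related receptors do, or as those of potassium, calcium, TRP, Orai, Piezo, chloride, anoctamin, ligand-gated and aquaporin channels do. This gave 77 genes of 4461 listed, of which 4056 are protein coding. By subgroup, 30 belong to receptor families and 47 to channel families. The name rule also caught a few relatives with other jobs. Adrbk2 encodes a kinase that acts on receptors, and Kcnip1, Kcnab1, Kcnab2, Kcne4, Cacnb3 and Cacna2d3 encode auxiliary subunits. Gpr89 encodes a Golgi pH regulator and Gpr137b a lysosomal membrane protein, rather than classical receptors. Older names are in use, so the adhesion receptors Gpr115, Gpr116 and Gpr125 stand under Gpr.

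The lines were grown from mammary tumors of female NIC mice, in which the MMTV promoter drives activated ErbB2 (Neu) together with Cre recombinase in mammary epithelium. Tumors were taken 8 weeks after palpation and the cells received no treatment. NIC/conditional Cpt1a KO lines (KO_1922, KO_1925, KO_2768 and KO_4258) carry floxed Cpt1a alleles, and NIC/wild-type lines (WT_5257 and WT_8905) do not, so every line shares the oncogene and Cre and the genotypes differ at Cpt1a, the enzyme that admits long-chain fatty acids into mitochondria. Each line comes from an independent tumor and stands for 1 replicate, with 2 libraries per line except KO_2768, for which 1 was used. The wording of the sample titles about conditional alleles runs against the genotype field, which was followed, and Cpt1a itself was not analysed here, so the genotype was not checked at the RNA level.

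Receptors coupled to G proteins span the membrane and pass on hormones, nucleotides, lipids and proteases through heterotrimeric G proteins to cAMP, calcium and kinases. Ion channels open to voltage, ligands, stretch or calcium itself and set the membrane potential and the calcium entry that secretory epithelia depend on. In mammary epithelium both groups are known for calcium transport into milk, for fluid secretion and for contraction of the myoepithelium in response to hormones.

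The table lists only genes that its authors called as different between genotypes, in these same libraries. Differences between genotypes are therefore described here and are not independent evidence. A test of genotype also weighs the spread within a genotype, so differences between lines were not free of that selection either. Library totals, recovered from counts, gene lengths and FPKM, ranged from 18247312 to 25386785 reads in deficient and from 15199378 to 17372643 in wild-type libraries. A floor of 3 reads in a library equals 2.38 to 3.79 normalised read counts, where a normalised read count is the read count divided by the authors' size factor for that library, averaged over the duplicates of a line. Floors of this kind cover counting error only. Exons of 25 members overlap a gene on the opposite strand, and since the use of strand in counting was not stated, reads of such pairs cannot be told apart. Among the members described here these are Orai1, Piezo1, Ano3, Ano6, Clcn4-2, Kcnn1, Kcnn2, Kcnab1, Kcnq5, Cacna1a, Cacna1d, Trpm5, Gprc5b, Gpr39, Gpr89, Gpr155, P2ry1, Ednra, Ptgfr and S1pr5. Kcnab2 and Gria3 overlap a gene on the same strand.

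KO_2768 and KO_4258 stood apart from the other deficient lines. The 4 of 10 fibroblast markers in the table (Dcn, Pdgfrb, Col1a2 and Thy1) summed to 28487 normalised read counts in KO_2768. The sum was 156, 64.4 and 0 in KO_1922, KO_1925 and KO_4258 and at most 1.71 in the wild-type lines. Dcn alone, at 27971, made up nearly all of the KO_2768 sum. Pdgfrb, Col1a2 and Thy1 stood there at 273, 116 and 126, and Col1a2 stood at 87.6 in KO_1922. Csf1r, the only 1 of 9 immune markers listed, stood at 5967 in KO_4258 and at 335 or less elsewhere. Elf5, the only 1 of 9 luminal markers listed, was lower in every deficient line (335 to 2931) than in the wild-type lines (5542 and 5790). Of 9 basal or myoepithelial markers 3 were listed (Krt17, Acta2 and Oxtr), with sums of 24.4 to 285.6 in deficient lines, 54.3 in WT_5257 and 1019.8 in WT_8905, and they did not go together. Krt17 was higher in every deficient line (22.5 to 214) than in the wild-type lines (0 and 0.582) and Acta2 was higher by mean, whereas Oxtr alone, at 1017.5, made up nearly all of the WT_8905 sum. No endothelial marker of 7 was listed, and 3 of 9 neural and melanocyte markers (Mlana, Sox10 and S100b) summed to 2881 to 5565 in deficient and 11722 to 16712 in wild-type lines. Sox10 and Mlana carried that sum, while S100b was higher in the mean of the deficient lines (46.0, 16.8, 406 and 1.68 against 0 and 7.46). Markers outside the table were not analysed here, so the label of mammary epithelium was only checked in part. The part these differences play in the results below was not tested, and in cultures fewer cells of a type cannot be told apart from less RNA per cell.

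Most members were scarce transcripts. The median member had a mean of 0.46 FPKM (fragments scaled by gene length and library size, the length-corrected level as deposited) over the 6 lines, against 7.55 for all listed genes, and 44 members (57.1%) were under 1 FPKM against 23.7% of all listed genes. At the other end, 15 members reached 10 FPKM. In order of level these were Kcnn4, Ano1, Ano10, Cacnb3, P2rx4, Ano6, Gpr125, Gprc5a, Clcn4-2, Piezo1, Gpr137b, Gprc5b, Gabrp, Orai3 and Orai1. By family name, 11 of these 15 are channel genes and 4 are receptor genes, with Cacnb3, Ano6 and Gpr137b counted by name only. None of the 15 overlapped between genotypes: 10 were lower in every deficient line than in both wild-type lines, and 5 were higher. Of the 1939 listed genes at 10 FPKM or more, 81.5% did not overlap, 38.7% lower and 42.8% higher.

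Across all 77, 47 were higher and 30 were lower in the mean of the deficient lines, a share of 61.0% higher that compares with 58.8% of all listed genes. All 4 deficient lines lay above both wild-type lines for 26 members (33.8%), where 40.6% of all listed genes did, and below both for 28 members (36.4%), where 34.3% did. The other 23 members overlapped. Without KO_2768 the members above numbered 33 (42.9%, all listed genes 45.8%), and without KO_4258 they numbered 36 (46.8%, all listed genes 50.8%), while those below stayed between 28 and 29 whichever line was left out. The members that were higher were mostly rare: 31 of the 47 were under 1 FPKM, against 13 of the 30 that were lower. In 12 members (15.6%, against 5.2% of all listed genes) no wild-type library had a read. No member was without a read in every deficient library, where 15 of the 4461 listed genes were. These 2 counts are not alike, since there were 7 deficient libraries and 4 wild-type libraries, the latter with lower totals. Genes without wild-type reads could also be listed only through the deficient lines.

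**Figure D1:**
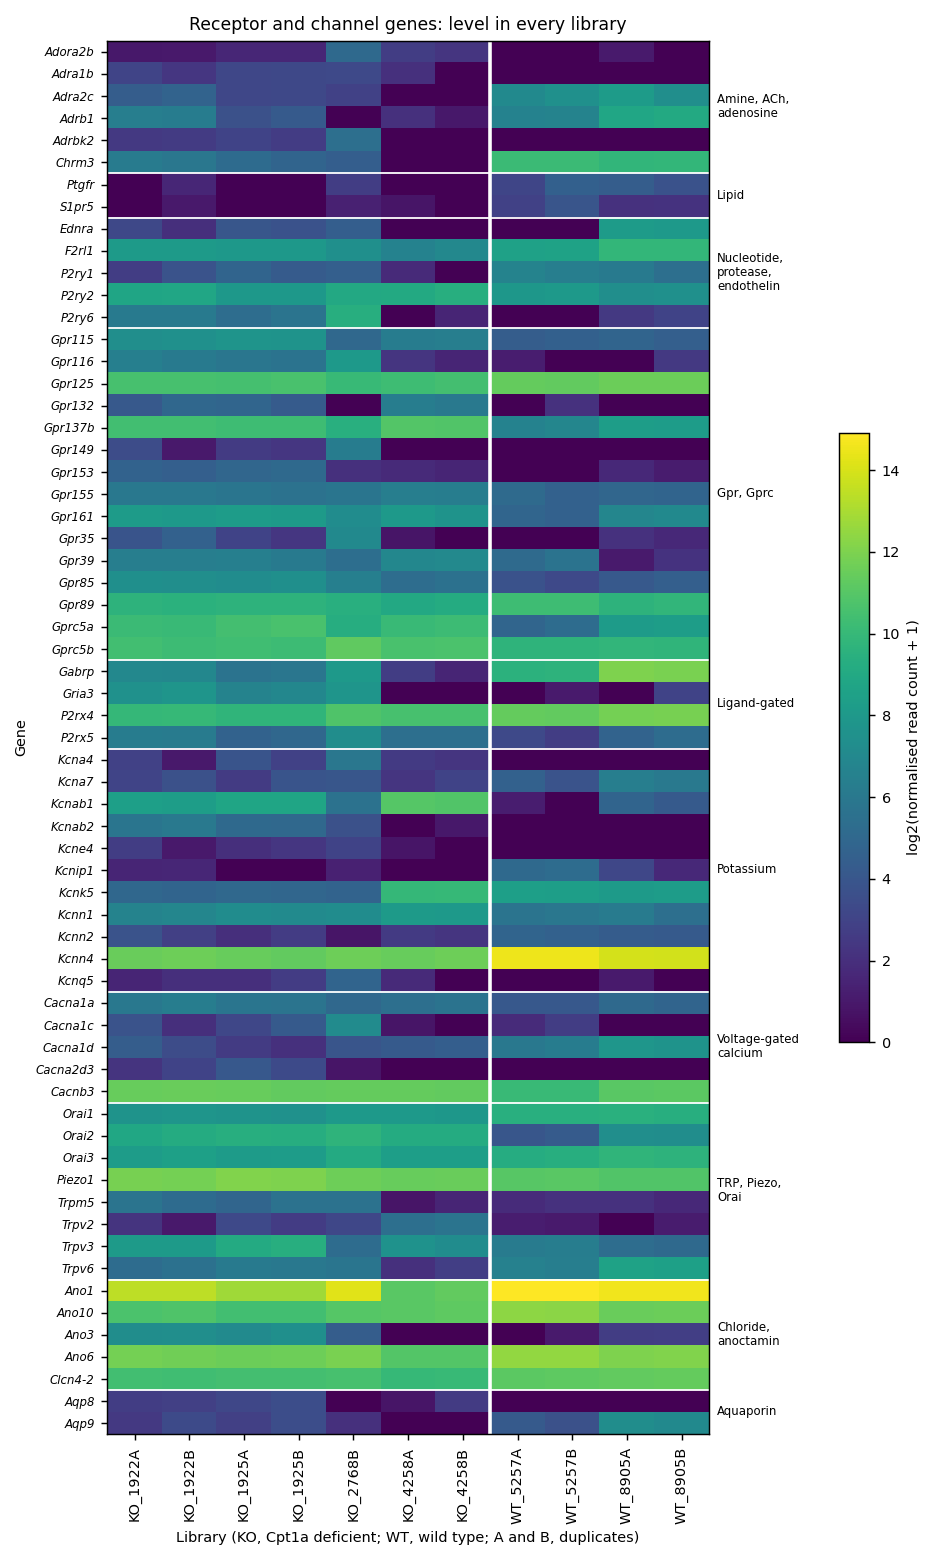
Level of the 63 members named in the text (rows, grouped by subgroup) in each of the 11 libraries (columns), as log2(normalised read count + 1). Kcnn4 and Ano1 are the brightest rows, Orai2 and Gprc5a are darker in the 4 wild-type libraries, and both KO_4258 libraries are at 0 for 11 of these genes.

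The genotypes were compared with edgeR's quasi-likelihood F-test on reads summed by line, 4 against 2 lines, with Benjamini-Hochberg adjustment over all 21951 protein-coding genes of the annotation because unlisted genes were tested by the authors too. Of the genes tested here, 357 are not protein coding, so that number may be too low. A low-count filter left 70 members of 77 and 4273 of all genes. No member and no listed gene had an adjusted p under 0.05 (percent called: 0). At an unadjusted p under 0.05, 17 members were higher and 16 lower in the deficient lines, 24.3% and 22.9% of the 70, where 26.3% and 21.5% of all tested genes were. Adjustment over the listed genes alone, which ignores that they were selected, called 2 members (Kcnn4 and Orai1) and 3.25% of all genes. DESeq2 on the same sums called 18 members and 23.2% of all genes. Treating every library as a separate sample called 36 of 58 members tested and 62.2% of all genes, a figure that counts libraries of the same line as independent. Adding the replicate number as a block gave 27 members and 50.3% of all genes, and limma-voom with the line as a random effect gave 5 members and 6.82%.

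Sizes of difference were large for the members, in a table that holds only genes called between genotypes. At low counts such a call takes a larger fold, so a trait of the members cannot be told apart from that selection. Of the 61 tested members with reads in both genotypes, 53 (86.9%) differed at least 2-fold between genotypes, against 54.9% of all such genes, with the lower level of the members standing beside it and its part not tested. Their log2 fold changes (deficient over wild type) ran from -5.11 to 6.03. The median over the 70 tested members was 1.61, and 1.12 when the 9 without wild-type reads were set at the smallest fold that a floor of 3 reads per library allows. Over all tested genes the median was 0.60, or 0.58 with the same bounds. The members' median depended on the lines: it was 0.91 without KO_1922, where 61 members were tested, and 1.85 without WT_8905, where 77 were.

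**Figure D2:**
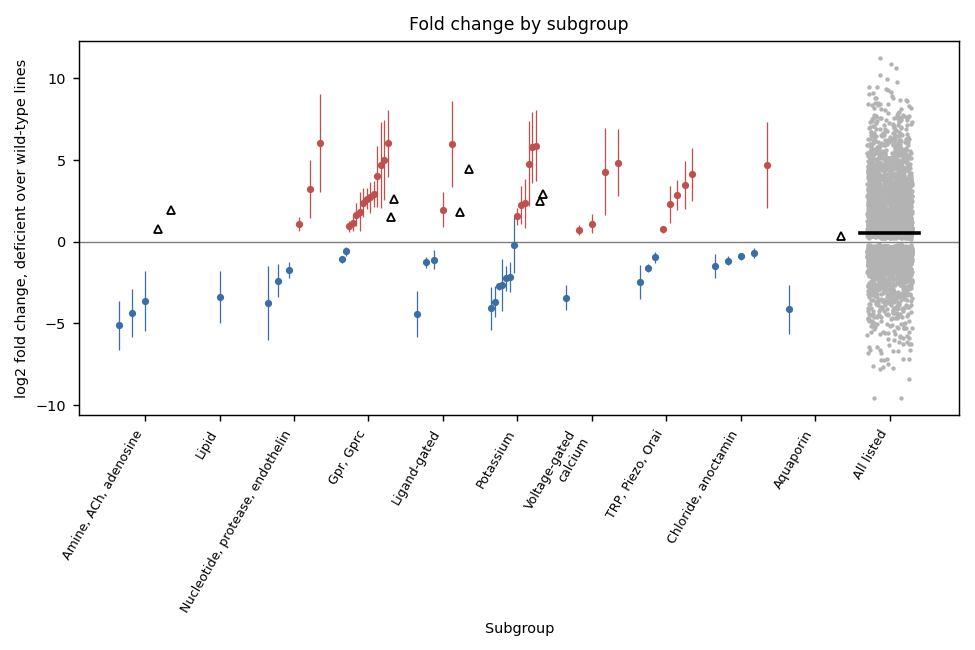
Fitted log2 fold change by line, deficient over wild type (y axis), for the 61 tested members with reads in both genotypes, by subgroup (x axis), with bars of 1 standard error. Open triangles mark lower bounds for the 9 tested members without wild-type reads, and grey points are the 4118 such listed genes with reads in both genotypes, with their median as a black line. Gpr and Gprc receptors lie mostly above 0, and chloride channels and anoctamins mostly below.

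The store-operated calcium channel family differed between genotypes in opposite directions. Orai1, Orai2 and Orai3 form the plasma membrane pore that opens when the endoplasmic reticulum is emptied of calcium and its STIM sensors reach out to the membrane. All 3 family members were listed, and their differences between genotypes had different signs. Their promoters are shown as the stretch of 150 bases before the annotated start, from the RefSeq table for GRCm38.p6, together with that of Kcnn4, the calcium-activated potassium channel described next. Capitals mark each match to the E-box CACGTG, which reads the same on both strands.
Orai1: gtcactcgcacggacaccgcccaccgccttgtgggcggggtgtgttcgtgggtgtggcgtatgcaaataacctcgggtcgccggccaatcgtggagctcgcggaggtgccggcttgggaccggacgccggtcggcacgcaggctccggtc
Orai2: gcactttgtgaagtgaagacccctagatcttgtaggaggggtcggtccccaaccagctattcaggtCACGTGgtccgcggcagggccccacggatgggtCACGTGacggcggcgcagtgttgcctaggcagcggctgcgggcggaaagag
Orai3: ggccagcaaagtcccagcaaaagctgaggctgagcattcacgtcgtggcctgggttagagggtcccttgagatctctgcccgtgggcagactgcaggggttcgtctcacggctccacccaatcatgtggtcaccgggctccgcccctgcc
Kcnn4: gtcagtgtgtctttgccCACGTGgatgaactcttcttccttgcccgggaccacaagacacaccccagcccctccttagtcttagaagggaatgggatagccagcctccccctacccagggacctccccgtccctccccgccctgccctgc
These lie at chr5:123014924-123015073 (forward strand), chr5:136170657-136170806 (reverse), chr7:127769665-127769814 (forward) and chr7:24370113-24370262 (forward). The Orai2 stretch holds 2 copies of the E-box, that of Kcnn4 holds 1 and the others hold none. In windows of 250 bases before the start, CACGTG occurs in 6.02% of the 32851 promoters of the table and in 8.05% of the 4099 that belong to listed genes. None of the 4 genes has TGACGTCA (the cAMP response element, 1.55% of all promoters), TGACNNNGC (the antioxidant response element core, 10.2%) or TATAAA (12.4%) in its window on either strand. A match is a run of letters and says nothing of binding. Windows were found for 60 of the 77 members, which is under 80%, so a motif or base-composition comparison over all members is void and was not made.

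Orai1 (chr5:123015074-123030450) had 207, 194, 252 and 252 normalised read counts in KO_1922, KO_1925, KO_2768 and KO_4258, and 689 and 679 in WT_5257 and WT_8905. The groups did not overlap, and the wild-type mean was 3.02 times the deficient mean. The log2 fold change was -1.59 (SE 0.235, 4 and 2 lines, edgeR adjusted p = 0.209). The wild-type lines differed by 0.02 on the log2 scale (edgeR adjusted p = 0.868 against duplicate libraries).

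Orai2 (chr5:136147464-136170656) differed in the opposite direction. It stood at 532, 636, 837 and 572 in the deficient lines in the same order, and at 16.9 and 163 in WT_5257 and WT_8905. All 4 deficient lines were above both wild-type lines, at 7.18 times their mean (log2 fold change 2.84, SE 0.917, edgeR adjusted p = 0.426). The wild-type lines themselves were 9.61-fold apart (edgeR adjusted p = 1.15e-17), a wider gap than the 1.57-fold from the lowest to the highest deficient line.

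Orai3 (chr7:127769815-127775150) had 329, 293, 552 and 333 in deficient lines and 623 and 839 in wild-type lines. These did not overlap either, with a log2 fold change of -0.96 (SE 0.328, edgeR adjusted p = 0.444). On the length-corrected scale the summed Orai level was 21.1, 21.3, 30.3 and 22.3 FPKM in the deficient lines and 34.7 and 42.1 FPKM in the wild-type lines. Orai2 made up 33.9% to 40.7% of that sum in the deficient lines, 0.663% in WT_5257 and 5.30% in WT_8905. The share of Orai1 was the reverse, with 22.1% to 30.7% of the sum in the deficient lines against 55.5% and 45.6%. The share of Orai3 was closer between genotypes, at 33.8% to 42.3% against 43.9% and 49.2%. The sensors Stim1 and Stim2 were not analysed here.

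Potassium channels held the member with the smallest p. Kcnn4 (chr7:24370263-24385209) encodes the intermediate-conductance channel that calcium opens through calmodulin, and was the most abundant member at a mean of 219.5 FPKM. It stood at 3055, 2675, 3195 and 3014 normalised read counts in KO_1922, KO_1925, KO_2768 and KO_4258, and at 23830.0 and 15564 in WT_5257 and WT_8905. The deficient lines lay within 1.19-fold of each other and far below both wild-type lines, whose mean was 6.60 times as high. The log2 fold change was -2.73 (SE 0.214, edgeR adjusted p = 0.128), the lowest p of all 4273 genes tested. It stayed between -3.001 and -2.385 in every alternative run, with adjusted p between 1.79e-22 and 0.507.

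Kcnn1, a small-conductance relative also opened by calcium, was higher in the deficient lines at low level (1.67 FPKM). Its counts were 107, 146, 152 and 268 in deficient and 56.1 and 57.6 in wild-type lines, with no overlap (log2 fold change 1.56, SE 0.522, edgeR adjusted p = 0.433). Kcnn2, named here with Gpr161 and Grk5 after its values were seen, was near the floor, with 0.792 to 9.57 in deficient and 18.3 to 25.3 in wild-type lines. The 3 listed calcium-activated Kcnn genes did not overlap between genotypes, 1 above and 2 below, where 74.9% of all listed genes did not overlap.

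Kcnk5, a background channel of the tandem-pore class that is blocked by extracellular acid, separated lines rather than genotypes. It had 28.6, 30.6 and 25.4 in KO_1922, KO_1925 and KO_2768, but 1000.1 in KO_4258, above the 336 and 288 of the wild-type lines. The log2 fold change over all lines was -0.20 (SE 1.70, edgeR adjusted p = 1) and became -3.46 without KO_4258. The 4 deficient lines differed with an edgeR adjusted p of 4.46e-40 against duplicate libraries. The gene is 1 of the 3 members that KO_4258 expressed at least 4-fold above every other deficient line, with Kcnab1 and Trpv2. The share of all listed genes that did so was not taken.

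Kcnab1, an auxiliary beta subunit of voltage-gated potassium channels, reached 327, 440.2, 47.5 and 1914 in the deficient lines and 0.632 and 22.3 in the wild-type lines. Every deficient line was above both, though the lowest, KO_2768, came nearest to WT_8905. Its log2 fold change was 5.89 (SE 2.15, edgeR adjusted p = 0.481). Kcnab2, the sister subunit, had 59.6, 32.6, 11.9 and 0.493 in the deficient lines and no read in any wild-type library, which puts the mean at least 7.49-fold higher against 3 reads in each wild-type library. Both beta subunits were thus higher in the mean of the deficient lines, with very different levels among them. Kcnab2 in KO_4258 lay under the floor of 3 reads.

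Among the other potassium channels, Kcna7, a voltage-gated channel known from heart and skeletal muscle, stood at 9.84, 9.28, 15.1 and 5.43 in deficient and 18.6 and 74.3 in wild-type lines. Kcnip1, a calcium-binding partner of the Kcnd channels, had 1.95, 0, 1.58 and 0 against 35.6 and 5.11 and was too low to be tested. In all, 10 of the 18 potassium channel genes were higher and 8 lower by mean, 8 lay wholly above (44.4%, all listed genes 40.6%), 7 wholly below (38.9%, all listed genes 34.3%) and 3 overlapped. Of the 18, 14 were under 1 FPKM and only Kcnn4 reached 10.

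Chloride channels and anoctamins were mostly lower. All 4 abundant members were lower in every deficient line than in both wild-type lines (80% of the 5, all listed genes 34.3%). Of the listed genes at 10 FPKM or more, 38.7% were. The fifth member, Ano3, was higher by mean. Ano1 (chr7:144588549-144751974), the calcium-activated chloride channel of secretory epithelia, had 10896, 7076, 19818 and 2374 normalised read counts in deficient lines and 30807 and 25054 in wild-type lines. The groups did not overlap, but the deficient lines spread 8.35-fold, from KO_4258 to KO_2768, and the log2 fold change of -1.48 had an SE of 0.734 (edgeR adjusted p = 0.634).

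Ano10, a further anoctamin whose channel activity is less settled, had 1709.8, 1352, 2033 and 2255 against 5172 and 2969 (log2 fold change -1.15, SE 0.298, edgeR adjusted p = 0.354). Ano6, the calcium-dependent phospholipid scramblase, had 3421, 3088, 3891 and 1939.6 against 5714 and 4252. Clcn4-2, which encodes an endosomal exchanger of chloride for protons, had 1322, 1400.3, 1553 and 1028 against 2324 and 2603 (log2 fold change -0.89, SE 0.202, edgeR adjusted p = 0.320). Here the wild-type mean was 1.86 times the deficient mean, a smaller gap than for Ano10 at 2.22 times. Ano3, in contrast, had 162 and 154 in KO_1922 and KO_1925, 19.8 in KO_2768 and 0 in KO_4258, with 0.549 and 5.73 in the wild-type lines, so its groups overlapped.

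Among the listed TRP and Piezo channels, Piezo1 (chr8:122481698-122551329), which opens on membrane stretch, was the most abundant. It had 3625, 4236, 3192 and 2841 in deficient and 2166 and 1878 in wild-type lines, with no overlap and a ratio of means of 1.72 (log2 fold change 0.78, SE 0.216, edgeR adjusted p = 0.372). Trpv6, the epithelial calcium uptake channel, had 42.5, 66.7, 54.7 and 4.54 against 87.4 and 367, lower in every deficient line (edgeR adjusted p = 0.557).

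Trpv3, a warmth-sensitive channel of skin, had 279, 605, 38.0 and 172 in deficient and 75.6 and 36.0 in wild-type lines, where KO_2768 lay among the wild-type values. Trpm5, a calcium-activated cation channel of taste cells, had 43.9, 38.0 and 48.3 in KO_1922, KO_1925 and KO_2768, but 1.38 in KO_4258, below the 2.91 and 2.86 of the wild-type lines. The wild-type libraries held 10 reads of it in all. Of the 8 genes of the TRP, Piezo and Orai group, 3 lay above (37.5%, all listed genes 40.6%), 3 below (37.5%, all listed genes 34.3%) and 2 overlapped. At an unadjusted p under 0.05, 3 were higher (37.5%, background 26.3%) and 2 lower (25.0%, background 21.5%).

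Voltage-gated calcium channel genes were low apart from Cacnb3, the cytosolic beta subunit that brings pore subunits to the membrane. Cacnb3 had 2856, 2714, 2642 and 2607 normalised read counts in the deficient lines, within 1.10-fold of each other, and 1088 and 2207 in WT_5257 and WT_8905. The deficient lines were all above, yet by less from WT_8905 than the wild-type lines were from each other (log2 difference of WT_5257 minus WT_8905 -1.02, edgeR adjusted p = 1.49e-20). The fitted log2 fold change was 0.72 (SE 0.297, edgeR adjusted p = 0.545).

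The pore subunit gene Cacna1d, an L-type channel, had 15.3, 4.06, 14.3 and 19.1 in deficient and 68.2 and 215 in wild-type lines (log2 fold change -3.42, SE 0.776, edgeR adjusted p = 0.320). Cacna1a, of the P/Q type of nerve terminals, had 70.4, 53.5, 32.5 and 46.6 against 16.4 and 30.3, a narrow separation from WT_8905. Cacna1c, the L-type channel of heart and smooth muscle, had 8.04, 12.9 and 0.396 in KO_1922, KO_1925 and KO_4258 but 144 in KO_2768, with 4.01 and 0 in the wild-type lines. No sodium channel gene matched the name rule among the listed genes.

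Ligand-gated channels were led in level by P2rx4 and Gabrp. P2rx4 (chr5:122707584-122729738), an ATP-gated cation channel found in lysosomes and at the surface, had 1008, 861, 1821 and 1542 in deficient and 2648 and 3606 in wild-type lines. The groups did not overlap, at a wild-type mean of 2.39 times the deficient mean (log2 fold change -1.26, SE 0.344, edgeR adjusted p = 0.366). P2rx5, its relative, had 74.4, 27.6, 158 and 42.7 against 7.17 and 31.6, with overlap at KO_1925.

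Gabrp, the pi subunit of the GABA-A receptor that is typical of reproductive and mammary epithelium, had 122, 54.1, 273 and 3.76 against 787 and 4066. It was lower in every deficient line and also varied from 3.76 to 273 among them and 5.16-fold between the wild-type lines (log2 fold change -4.43, SE 1.39, edgeR adjusted p = 0.412). The order of Gabrp among the deficient lines was that of Elf5, with KO_2768 highest and KO_4258 lowest, and Ano1 had the same order. Of all listed genes, 34.5% were highest in KO_2768 and 39.1% lowest in KO_4258 among the deficient lines. Between the wild-type lines Elf5 was close (5542 and 5790), unlike Gabrp. The part of the luminal state in the level of Gabrp was not tested.

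Gria3, a subunit of AMPA-type glutamate receptors better known from neurons, had 200.2, 111, 217 and 0 in deficient lines and 0.549 and 3.49 in wild-type lines. KO_4258, without a read, lay with the wild-type lines, and the other 3 deficient lines were far above them.

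**Figure D3:**
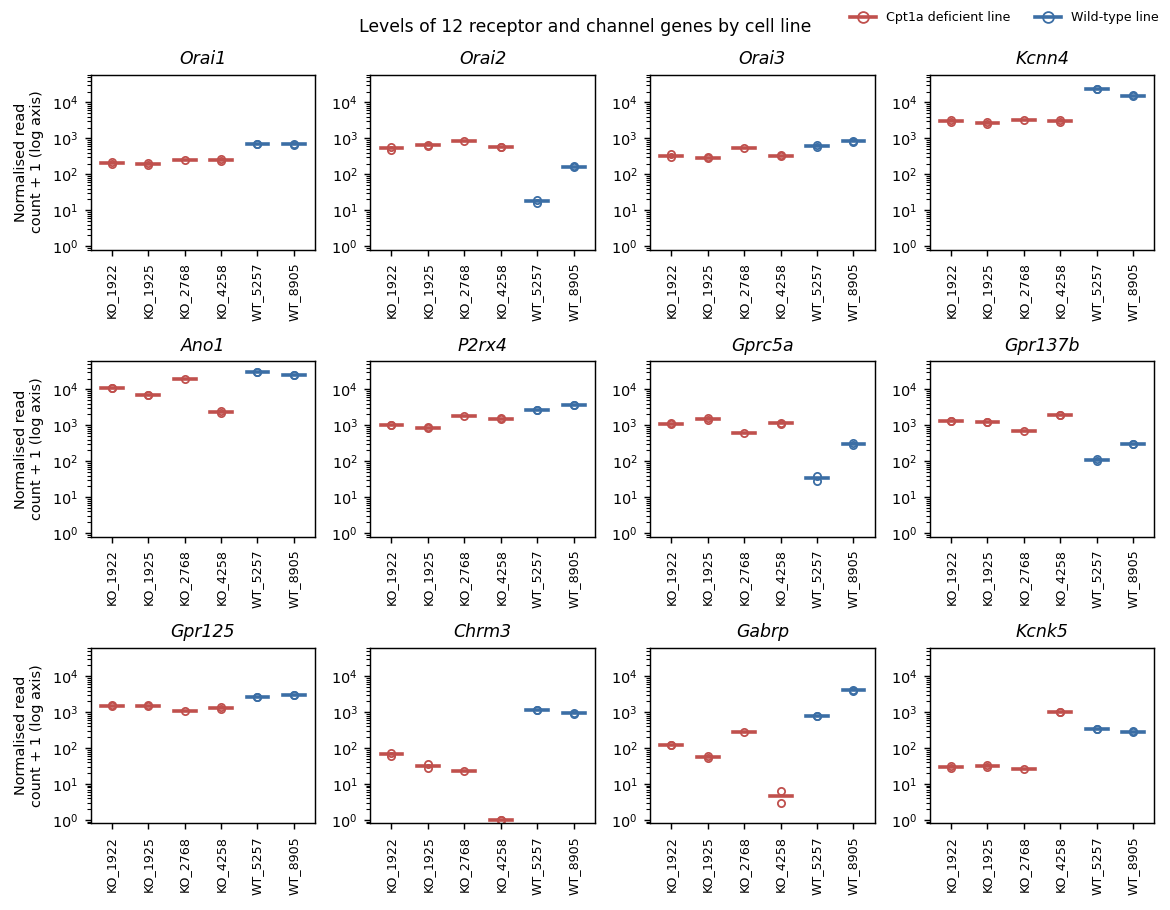
Normalised read count + 1 (log y axis) of 12 genes in the 4 Cpt1a-deficient (red) and 2 wild-type (blue) lines (x axis). Circles are libraries and bars are line means. Orai1, Orai3, Kcnn4, Ano1, P2rx4, Gpr125, Chrm3 and Gabrp are lower and Orai2, Gprc5a and Gpr137b higher in every deficient line than in both wild-type lines, whereas Kcnk5 separates KO_4258, at 1000.1, from the other 3 deficient lines.

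The Gpr and Gprc receptors were mostly higher: 14 of 16 (87.5%) were higher by mean, where 58.8% of all listed genes were. Of the 16, 9 lay above both wild-type lines (56.2%, background 40.6%), 2 lay below (12.5%, background 34.3%) and 5 overlapped. At an unadjusted p under 0.05, 6 were higher (37.5%, background 26.3%) and 1 lower (6.25%, background 21.5%). Gprc5a (chr6:135065651-135084709), a retinoic-acid-inducible orphan receptor of epithelia, had 1112, 1487, 624 and 1154 normalised read counts in deficient lines and 32.6 and 299 in wild-type lines. The deficient mean was 6.61 times as high (log2 fold change 2.72, SE 0.935, edgeR adjusted p = 0.447). The wild-type lines differed 9.17-fold (edgeR adjusted p = 9.22e-23), with WT_8905 the higher, as for Orai2.

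Gprc5b, of the same orphan family, had 1283, 1235, 2515 and 1629 against 842 and 880.1 (log2 fold change 0.95, SE 0.343, edgeR adjusted p = 0.476). Gpr137b (chr13:13357623-13393624), a lysosomal membrane protein, had 1335, 1255, 677 and 1900.4 against 107 and 306, with a ratio of means of 6.25 (log2 fold change 2.64, SE 0.625, edgeR adjusted p = 0.330). Gpr125 (chr5:49959951-50058996), an adhesion receptor, was the abundant exception, at 1524, 1506, 1047 and 1325 in deficient and 2615 and 3072 in wild-type lines. It did not overlap, was 2.11 times as high in the wild-type mean (log2 fold change -1.08, SE 0.203) and had the smallest p of the receptors (edgeR adjusted p = 0.271).

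Gpr116, an adhesion receptor of lung and vessels, had 77.4, 54.0, 259.9 and 2.97 in deficient and 0.632 and 2.33 in wild-type lines, where the wild-type libraries held 5 reads in all. Gpr85, an orphan receptor conserved in brain, had 167, 161, 87.2 and 42.6 against 10.7 and 19.5 (log2 fold change 2.92, SE 0.815, edgeR adjusted p = 0.372). Gpr35 and Gpr149 were led by KO_2768, at 132 and 76.9, and had at most 18.7 in the other deficient lines. For these genes a level in KO_2768 stood beside its fibroblast marker sum, nearly all of it Dcn. Whether fibroblasts were in that culture was not tested, nor was any part of theirs in these levels.

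Gpr132, a proton- and lipid-responsive receptor of leukocytes, had 23.7, 23.4, 0 and 72.6 in deficient lines, while the wild-type libraries held 3 reads together. KO_4258, the highest, was also the line with Csf1r at 5967, the only 1 of 9 immune markers listed. Whether leukocytes were in that culture was not tested, nor was any part of theirs in this level. Gpr161, which restrains Hedgehog signaling at the primary cilium, had 279, 292, 151 and 231 against 26.0 and 125. Gpr39, Gpr89, Gpr115, Gpr153 and Gpr155 had means between 0.139 and 9.19 FPKM, and of these only Gpr89 was lower in the deficient lines.

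Receptors for amines and acetylcholine contained some of the widest gaps. Chrm3 (chr13:9875486-10360844), the muscarinic receptor that drives secretion and contraction through calcium, had 65.9, 31.5, 21.4 and 0 in deficient lines and 1144 and 919 in wild-type lines. All deficient lines were far below, and the wild-type mean was 34.7 times the deficient mean (log2 fold change -5.11, SE 1.49, edgeR adjusted p = 0.386). Adra2c, an inhibitory adrenergic receptor, had 22.99, 8.16, 6.34 and 0 against 157 and 229 (log2 fold change -4.36, SE 1.46, edgeR adjusted p = 0.433).

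Adrb1, which couples to cAMP production, had 78.6, 14.9, 0 and 2.08 against 99.7 and 486. KO_1922 came close to WT_5257, and its log2 fold change of -3.60 had an SE of 1.84 (edgeR adjusted p = 0.652). Adora2b, the low-affinity adenosine receptor, had 0.975, 2.04, 33.3 and 4.75, with 1 read in all wild-type libraries together, and could not be tested. Adra1b and the kinase gene Adrbk2 had no wild-type read and at most 8.72 and 42.8 in a deficient line.

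Among nucleotide receptors, P2ry2, which responds to ATP and UTP, had 445, 249, 519.9 and 599 in deficient and 255 and 173 in wild-type lines, with KO_1925 just under WT_5257 (log2 fold change 1.08, SE 0.434, edgeR adjusted p = 0.531). P2ry6, the UDP receptor, had 67.2, 45.5, 655 and 0.986 against 0 and 5.75, with KO_2768 far above the rest and only 2 reads in the KO_4258 libraries. P2ry1, the ADP receptor, was lower in every deficient line, at 9.42, 22.9, 22.2 and 1.19 against 91.2 and 54.2 (edgeR adjusted p = 0.565).

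F2rl1, the receptor that trypsin-like proteases cleave and activate, had 274, 244, 169 and 109.6 in deficient and 375 and 945 in wild-type lines (log2 fold change -1.73, SE 0.516, edgeR adjusted p = 0.396). Ednra, the endothelin A receptor, had 5.72, 13.7, 21.4 and 0 in deficient lines, 277 in WT_8905 and no read in WT_5257, so its genotype difference rested on WT_8905 and its log2 fold change turned from -3.76 to 7.24 without that line. Its wild-type lines differed with an edgeR adjusted p of 1.2e-21. The lipid mediator receptors Ptgfr, for prostaglandin F, and S1pr5, for sphingosine 1-phosphate, had means of 0.0795 and 0.0564 FPKM. Their counts were 1.02, 0, 5.55 and 0 against 15.3 and 16.5, for Ptgfr and 0.510, 0, 1.58 and 0.396 against 10.3 and 3.44 for S1pr5. The aquaporin Aqp9, which also passes glycerol, had 6.92, 8.21, 3.17 and 0 against 14.9 and 146, and Aqp8 had 5.85, 9.21, 0 and 2.86 with no wild-type read.

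Differences between lines of the same genotype were tested on libraries, with 1 mean per line and the spread taken from duplicates. Of 58 members that passed the filter there, the 4 deficient lines differed for 55 (94.8%), close to the 90.8% of all listed genes. A difference of at least 2-fold was reached by 44 (75.9%), against 44.6% of all listed genes, and the median gap from the lowest to the highest deficient line was 2.88 on the log2 scale against 0.913. The wild-type lines differed for 37 (63.8%, background 65.6%), 14 higher in WT_5257 and 23 in WT_8905, and at least 2-fold for 22 (37.9%, background 23.1%). The members' lower read counts (median of 53.0 against 456 normalised read counts) stood beside the larger gaps, and their part was not tested. These p-values measure whether lines differ beyond duplicate libraries of the same line.

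KO_4258 was the lowest deficient line for 37 of the 77 members (48.1%, against 39.1% of all listed genes) and KO_2768 the highest for 32 (41.6%, against 34.5%). The next counts, without reads and at least 4-fold up, were not set beside all listed genes. They describe these lines and not receptors and channels as a class. KO_4258 had no read for 15 members, among them Chrm3, Gria3 and Ano3, whereas KO_1922 had reads for every member. KO_2768 was at least 4-fold above every other deficient line for 8 members with 20 or more counts in it, which were Adora2b, Adrbk2, Gpr149, Gpr35, P2ry6, Kcna4, Kcnq5 and Cacna1c. By contrast, 12 members with a deficient mean of 20 or more kept all 4 deficient lines within 2-fold. These were Ano10, Clcn4-2, Gpr125, Gpr155, Gpr161, Gpr89, Kcnn4, Orai1, Orai2, Orai3, Piezo1 and Cacnb3. Of these, 7 lay below and 5 above the wild-type lines, where 74.9% of all listed genes did not overlap. The share among listed genes with equally close deficient lines was not taken, and the table holds only genes called between genotypes.

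**Figure D4:**
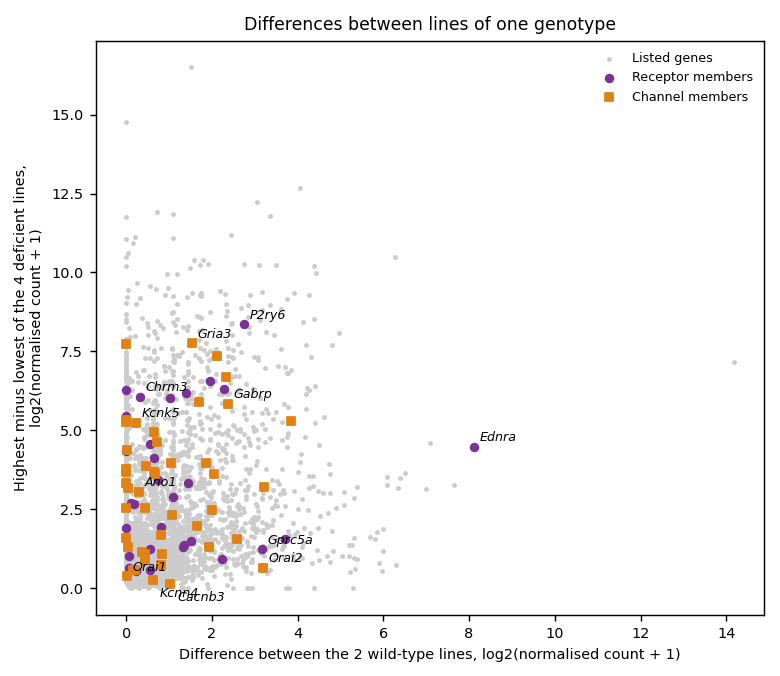
Gap between the highest and lowest of the 4 deficient lines (y axis) against the gap between the 2 wild-type lines (x axis), both in log2(normalised read count + 1), for listed genes (grey), receptor members (circles) and channel members (squares). Kcnn4, Orai1 and Cacnb3 lie near the bottom, P2ry6 and Gria3 near the top of the members, and Ednra far to the right with 0 reads in WT_5257 and 277 normalised read counts in WT_8905.

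By position, chromosome 7 held 13 members, 7 of them higher, where 44.4% of the 324 listed genes were higher. All 6 members on chromosome 1 were higher by mean, where 79.1% of the 301 listed genes were. Among the other chromosomes with at least 6 members, chromosome 3 had 5 of 9 higher (52.5% of its listed genes). Chromosome 11 had 6 of 8 (63.6%) and chromosome 5 had 2 of 7 (57.6%).

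A list of signal transducers held 27 listed genes, both those that carry receptor signals onward and those that shorten or end them. Rgs, Grk, arrestin and most Pde genes are of the second kind, so the counts say nothing of signal strength. By mean, 21 were higher (77.8%, all listed genes 58.8%) and 6 lower, with 0 called by edgeR after adjustment. Of the 27, 14 lay above both wild-type lines (51.9%, background 40.6%) and 3 below (11.1%, background 34.3%). At an unadjusted p under 0.05, 11 of the 25 tested were higher (44.0%, background 26.3%) and 2 lower (8.0%, background 21.5%). The list includes Gnb2l1, a ribosome-bound scaffold that only its name ties to G proteins. Gna15, a promiscuous alpha subunit of blood cells and epithelia, had 91.7, 91.6, 49.1 and 242 in deficient lines, and 1 read in all wild-type libraries together. Grk5, a kinase that turns receptors off, had 854, 766, 785 and 1148 against 205 and 190.3 (log2 fold change 2.17, SE 0.266, edgeR adjusted p = 0.154). Prkar1b, a regulatory subunit of protein kinase A, had 64.5, 33.3, 589.6 and 12.2 against 2.28 and 2.31.

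Gng2, a gamma subunit, had 30.3, 5.03, 199.7 and 0 with no wild-type read, and Rgs4, which shortens Gq and Gi signals, had 110.0, 21.5, 231 and 0.396 with 2 wild-type reads in all. Both were highest in KO_2768. Pde10a, which breaks down cyclic nucleotides, was the opposite, with 6 reads in all deficient libraries together and 310.1 in WT_5257 against 6.86 in WT_8905.

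Of 30 further listed receptor and channel genes outside the name rule, 18 were higher (60%, all listed genes 58.8%) and 12 lower by mean, and none was called after adjustment. Of these, 9 lay above (30.0%, background 40.6%) and 11 below (36.7%, background 34.3%) both wild-type lines. At an unadjusted p under 0.05, 7 were higher (25.0%, background 26.3%) and 6 lower (21.4%, background 21.5%) among the 28 tested. Bdkrb2, the bradykinin receptor, had 253, 43.9, 207 and 223 in deficient and 1.18 and 3.42 in wild-type lines (log2 fold change 6.25, SE 1.13, edgeR adjusted p = 0.252). Hrh1, the histamine receptor linked to calcium release, had 100.1, 131, 101 and 7.41, with 3 wild-type reads in all. C5ar2, a complement receptor, was lower, at 45.0, 5.15, 10.3 and 2.08 against 490.0 and 552.

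Ramp3, a partner of the calcitonin receptor family, had 18.2, 13.2, 139 and 4.25 with 1 wild-type read. No deficient line overlapped the wild-type lines in it.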

How the data were processed

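RNA-Seq reads of 11 libraries from 6 cell lines were aligned and counted by the study with STAR 2.5 and HTSeq 0.6.1, versions per the submitters' processing notes. The use of strand in counting is not given in the sources used here. The deposited table gives, per listed gene, the authors' raw count in each library, a normalised signal (count divided by a size factor of 0.791 to 1.26) and FPKM. It also holds the authors' own fold changes and p-values for their comparison, which were not used. The listed genes held 33.3% to 34.6% of each library's reads.

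Here, counts were summed over the duplicates of a line and genotypes were compared with edgeR 4.0.16 (R 4.3.3, filterByExpr, authors' size factors, Benjamini-Hochberg over 21951 tests, the annotation's protein-coding genes). Lines of a genotype were compared on libraries, adjusted over the 3945 listed genes tested. The titles call the duplicates of a line biological replicates, without saying whether cultures were separate, so those p-values measure the spread between these libraries, which may be technical. The duplicates differed beyond counting noise, with a chi-square per degree of freedom of 11.4 in KO_4258 and 2.16 to 3.56 in the other lines with duplicates. KO_2768 had no duplicate, so its spread was taken from the other lines. DESeq2 1.42.0 and limma 3.58.1 served as alternatives, with other scalings, filters and lines left out in turn. Figures used Python 3.11.15, pandas 2.3.3 and matplotlib 3.10.9. Scripts were tested on simulated data.

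Members and gene lists were chosen with earlier results of these data known. Genes were named by rule: per subgroup the 4 highest in FPKM, the 4 with the largest fold change among those with a mean normalised count of 20 or more, and members with 3 or fewer reads in every library of a genotype and a mean of 20 or more in the other. From the signal transducer list and the list of other receptors and channels, the 5 with the largest fold change each were named. Some genes that this rule names are not reported here.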

Additional observations from a re-analysis of the deposited data

Results flagged for a closer look

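In 3 of the named members, 1 of the 4 deficient lines lay far from the others, by the ratio of its gap to the whole range of log2(normalised read count + 1), past Dixon's 95% critical value. Chance flags about 1 in 20 groups. These are also the only ones of all 77 members (3.90%), a smaller share than the 395 of 4461 listed genes (8.86%). All 3 concerned KO_4258, as did 231 of the 395. Gria3 was lowest there, at a ratio of 0.876, with 0 against 6.81 to 7.77 in the other deficient lines. Trpm5 was lowest there too, at 0.922, with 1.25 against 5.28 to 5.62. Kcnk5 was highest there, at 0.950, with 9.97 against 4.72 to 4.98. KO_4258 was also the line with the highest Csf1r and the lowest Elf5, and their part in these values was not tested.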

How the results depend on the processing

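No member was called by edgeR on line sums (33 at an unadjusted p under 0.05), nor with 3 other scalings, without the low-count filter, with 1 library per line or with any line left out. Members called numbered 36 with every library as a separate sample, 27 with the replicate block added (50.3% of all genes), 5 with limma-voom (6.82% of all genes), 18 with DESeq2 on line sums and 2 with adjustment over the listed genes alone. Members at an unadjusted p under 0.05 numbered 57 with every library separate, 56 with the replicate block and 50 with DESeq2, and 19 (without KO_1925) to 44 (without KO_4258) with a line left out. Without WT_8905 they numbered 21, with the lone wild-type line assumed to vary like the others. Replicate numbers only name libraries: differences of library A minus B correlated between lines at -0.0920 to 0.0910 over 10 line pairs, and 1986 genes were called with the replicate block against 2453 without. Of the 37 members that differed between wild-type lines, 22 did so at least 2-fold. The log2 fold change of Kcnk5 ran from -3.46 without KO_4258 to 0.178 without KO_2768, with 0.174 without KO_1922 and 0.172 without KO_1925, and that of Ednra from -4.76 without WT_5257 to 7.24 without WT_8905. The median log2 fold change of all genes was 0.60 with the authors' size factors, 0.41 with TMM and 0.36 with median-of-ratios factors. The members' median of 1.61 ran from 0.91 without KO_1922 to 1.85 without WT_8905, with 1.08 without KO_1925 and 0.99 with 1 library per line, and was 0.82 with every library separate. The table lists called genes only, which limits any scaling on it, and reads at the floor limit the rarest members. The cause of these shifts was not tested.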
